A study of Homo sapiens with 6 samples.

Results

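The TAM receptors are the receptor tyrosine kinases TYRO3, AXL and MERTK, and their ligands are GAS6 (growth arrest specific 6) and protein S, the product of PROS1. These 5 genes were taken by symbol from a table of 58735 genes measured in Ovcar8 cells. Ovcar8 is an established line from a human high-grade serous ovarian carcinoma, here grown in RPMI-1640 medium. Total RNA was sequenced from 3 libraries kept for 48 h with 5% fetal bovine serum (FBS) and from 3 libraries kept for 48 h without it (serum-starved). No genetic change or other agent is named for either group. The labels do not state separate cultures, and the spread that every test here rests on may therefore be technical. In bulk RNA, fewer cells that express a gene and less of its RNA per cell cannot be told apart.

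GAS6 and protein S bind the receptors through their C-terminal domains. Their N-terminal Gla domain, which needs vitamin K-dependent carboxylation, binds phosphatidylserine on dying cells, so the ligands bridge such cells to the receptor. AXL responds to GAS6, while TYRO3 and MERTK respond to both ligands. In phagocytes the receptors drive the uptake of apoptotic cells and dampen innate immune signalling. In carcinomas AXL is known for its link to invasion, survival and drug resistance. GAS6 was named as a transcript that accumulates in fibroblasts deprived of serum, and protein S is also a plasma cofactor of activated protein C. Serum itself carries protein S.

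Library totals ran from 16379416 to 19558484 counts, and all 5 genes were among the 13772 that passed the low-count filter. KRT8 and KRT18, keratins of simple epithelia, had group means of 2680 to 6130 CPM (counts scaled to library size), while KRT19 had 5 counts over the 6 libraries. PAX8, a lineage factor of the Müllerian epithelium, had a mean of 64.3 CPM with FBS and 78.7 CPM in the serum-starved libraries. EPCAM, CDH1 and WT1 lay under 3 CPM in both group means, and MUC16, SOX17, MECOM and EMX2 had no counts. Macrophages are the cells best known for MERTK. Their markers summed to 0.774 to 2.79 CPM with FBS and 0.439 to 2.24 CPM without serum. None of the 14 passed the filter, and CD163, MRC1, TYROBP, C1QA, C1QB and AIF1 had no counts. The 9 fibroblast markers summed to 334 to 599 CPM with FBS and 803 to 865 CPM without serum. That sum was carried by COL1A1 and PDGFRB, while COL1A2, DCN and FAP had no counts and COL3A1, LUM, PDGFRA and THY1 had 1, 7, 4 and 23 counts over the 6 libraries. The part of these markers in the results was not tested.

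The promoters of AXL and GAS6 are shown because these genes had the highest levels and the groups of libraries did not overlap in either. They are the 250 bases before the RefSeq transcription start nearest to the deposited gene start, on GRCh38.p14. That RefSeq start lies 20 bases inside the deposited gene for AXL and 9 bases outside it for GAS6. RefSeq holds 2 promoters each for AXL and TYRO3, and the other promoter was left out of the motif counts given below for these genes. The capitals mark GC boxes (GGGCGG on either strand), the motif bound by SP1 and SP3. AXL is at chr19:41218973-41219222 on the plus strand and GAS6 at chr13:113864077-113864326 on the minus strand.
AXL: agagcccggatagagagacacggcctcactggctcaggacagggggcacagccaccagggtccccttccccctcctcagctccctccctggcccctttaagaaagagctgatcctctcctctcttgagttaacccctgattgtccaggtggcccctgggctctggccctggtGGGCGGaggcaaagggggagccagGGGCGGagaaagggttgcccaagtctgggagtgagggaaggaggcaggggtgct
GAS6: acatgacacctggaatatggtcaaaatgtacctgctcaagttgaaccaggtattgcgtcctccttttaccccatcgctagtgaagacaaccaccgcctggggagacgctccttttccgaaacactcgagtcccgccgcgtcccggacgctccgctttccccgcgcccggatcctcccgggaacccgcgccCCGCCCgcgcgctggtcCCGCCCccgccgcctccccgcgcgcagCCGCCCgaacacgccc
AXL held 2 GC boxes, 78 and 54 bases before the start, and GAS6 held 3, at 60, 43 and 16 bases, counted from the first base of each box. A GC box lay in 42.6% of all 35116 RefSeq promoters cut to the same length. The same window held none of 5 other motifs in either gene, searched on both strands: the AP-1 site TGANTCA (6.57% of all promoters), the FOXO site TGTTTAC (2.98%), the TEAD site GGAATG (11.9%), the E-box CACGTG (6.34%) and the CArG box bound by serum response factor (1.16%). The windows of TYRO3, MERTK and PROS1 held 3, 4 and 2 GC boxes, and that of TYRO3 also held 1 AP-1 site and that of PROS1 1 FOXO site. For TYRO3 and PROS1 the RefSeq start nearest to the deposited gene start lies 1537 and 6107 bases inside the gene. These matches describe the sequence and do not show binding.

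Levels of different genes were compared per length, with the FPKM (fragments scaled by gene length and library) that the authors deposited. In all 6 libraries the order was AXL, GAS6, TYRO3, MERTK and PROS1. AXL lay at 104, 160 and 157 FPKM with FBS and 255, 163 and 360 FPKM without serum, in the order of the replicates. By its mean over the 6 libraries it ranked 229 of 13772 genes tested. AXL made up 96.3% to 98.8% of the summed FPKM of the 3 receptors in every library, and TYRO3 0.831% to 1.93%. GAS6 ranked 836, at 26.4, 47.05 and 48.6 FPKM with FBS and 78.4, 91.4 and 67.4 FPKM without serum. It held 97.7% to 99.3% of the summed FPKM of the ligand pair. TYRO3, MERTK and PROS1 ranked 6805, 8542 and 10662. This receptor and ligand set was thus made up almost wholly of AXL and GAS6 transcripts in both media.

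**Figure D1:**
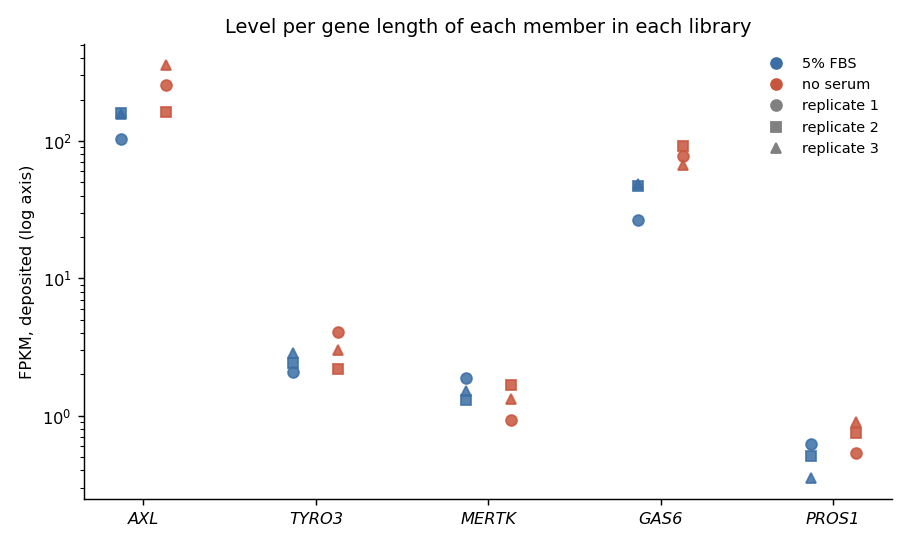
Deposited FPKM (log axis) of the 5 genes, 1 point per library, blue with FBS and red without serum, with the replicate given by the shape. AXL and GAS6 lie above 25 FPKM in all 6 libraries and the other 3 genes below 5 FPKM.

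Neighbours in this order were not equally far apart. AXL exceeded GAS6 by 1.78 to 5.33 times, GAS6 exceeded PROS1 by 42.6 to 146 times, and AXL exceeded TYRO3 by 49.95 to 119 times. TYRO3 exceeded MERTK by 1.10 times in FBS replicate 1 and by 4.34 times in serum-starved replicate 1. MERTK exceeded PROS1 by 1.47 to 4.32 times. Over all 6 libraries the ranges of neighbours did not overlap, with the narrowest gap between the lowest MERTK value, 0.934 FPKM, and the highest PROS1 value, 0.897 FPKM. The longest coding transcript in GENCODE 29 is shorter than the deposited gene length, at 4737 of 5154 bases for AXL and 2490 of 6006 bases for GAS6. By the length of that transcript, a setting added after the data were seen, the order held in 5 of the 6 libraries. In serum-starved replicate 2 GAS6 then lay above AXL, at 221 against 177 FPKM.

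The comparison of the groups asked which of these genes differ after 48 h without serum. GAS6 and AXL had the largest differences, with mean CPM 1.95-fold and 1.85-fold higher in the fit, and every serum-starved library lay above every library with FBS for both. Neither passed edgeR's test once p-values were adjusted over all genes, nor did the other 3. Across all genes 0.283% passed. At an unadjusted p under 0.05, 2 of the 5 genes were higher, against 6.01% of all genes. The groups did not overlap in 2 of the 5, against 17.7% of all genes in either direction. A fold change above 0 was seen in 4 of the 5, against 48.5% of all genes. The median log2 fold change of the 5 was 0.56, against -0.02 for all genes tested. It is the value of PROS1, whose groups overlapped, and the members were chosen with earlier results of these data known.

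Among the receptors, AXL (ENSG00000167601, chromosome 19, 41219203 to 41261766, plus strand, GRCh38) had TMM-normalized levels of 556, 838 and 828 CPM with FBS. Without serum it had 1341, 864 and 1904 CPM. The serum-starved libraries were all higher, but replicate 2 lay only just above the highest library with FBS, and replicate 3 was far above the rest. The means were 741 ± 160 and 1370 ± 520 CPM (SD, n = 3). The fitted log2 difference was 0.89 ± 0.35 (standard error, SE; edgeR adjusted p = 0.391). The 95% interval for AXL alone, not adjusted for the number of genes, was 1.11-fold to 3.09-fold. Without serum-starved replicate 3 its log2 fold change was 0.57 (edgeR adjusted p = 0.302; over all alternatives 0.1995 to 0.997).

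TYRO3 (ENSG00000092445, chromosome 15, 41557675 to 41583586, plus strand), the receptor best known from the nervous system, was read at 23.6, 27.0 and 32.2 CPM with FBS and at 45.3, 24.8 and 34.0 CPM without serum. The groups overlapped, with serum-starved replicate 2 inside the range of the libraries with FBS. Its means were 27.6 ± 4.34 and 34.7 ± 10.3 CPM (SD, n = 3), with a log2 fold change of 0.33 ± 0.31 (SE; edgeR adjusted p = 0.768). The interval ran from 0.798-fold to 1.98-fold.

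MERTK (ENSG00000153208, chromosome 2, 111898479 to 112029561, plus strand), the main receptor for apoptotic cell uptake in macrophages, rested on 66 to 182 counts per library. It was read at 9.25, 6.26 and 7.28 CPM with FBS and at 4.49, 8.12 and 6.38 CPM without serum. It was the 1 gene of the 5 with a fold change below 0. The lowest library was serum-starved replicate 1 and the highest FBS replicate 1, and the others overlapped between the groups. The means were 7.59 ± 1.52 and 6.33 ± 1.82 CPM (SD, n = 3), and the log2 fold change was -0.26 ± 0.40 (SE; edgeR adjusted p = 0.874). The interval was 0.464-fold to 1.50-fold.

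Among the ligands, GAS6 (ENSG00000183087, chromosome 13, 113820549 to 113864067, minus strand) was at 165, 287 and 298 CPM with FBS and at 481, 565 and 416 CPM without serum. All 3 serum-starved libraries were higher than all 3 with FBS, with a gap between 298 and 416 CPM, and FBS replicate 1 was the lowest. The means were 249.9 ± 73.9 and 487 ± 74.5 CPM (SD, n = 3). In the fit this was a log2 fold change of 0.96 ± 0.32 (SE; edgeR adjusted p = 0.301). Its interval was 1.22-fold to 3.11-fold. Without serum-starved replicate 3, GAS6 passed at an edgeR adjusted p of 0.0453 with a log2 fold change of 1.06, and it did not pass in the 5 fits that left out another library (adjusted p over all alternatives 0.0453 to 0.997). The overlapping antisense gene GAS6-AS1 had 0 to 5 counts per library against 3242 to 10287 for GAS6. The strand setting of the counting is not given, so these counts do not show how reads from the overlap were assigned. The divergent transcript GAS6-DT, which starts beside GAS6 on the other strand, was at 2.20 ± 0.486 and 2.90 ± 0.541 CPM (log2 fold change 0.40, edgeR adjusted p = 0.836).

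PROS1 (ENSG00000184500, chromosome 3, 93873033 to 93980003, minus strand) was the scarcest of the 5, with 30 to 114 counts per library. It was read at 3.51, 2.80 and 1.95 CPM with FBS and at 2.99, 4.17 and 5.02 CPM without serum, and serum-starved replicate 1 lay inside the range with FBS. The means were 2.75 ± 0.779 and 4.06 ± 1.02 CPM (SD, n = 3), with 0.56 ± 0.47 (SE) as the log2 fold change (edgeR adjusted p = 0.732). Its interval was the widest of the 5, from 0.744-fold to 2.92-fold.

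**Figure D2:**
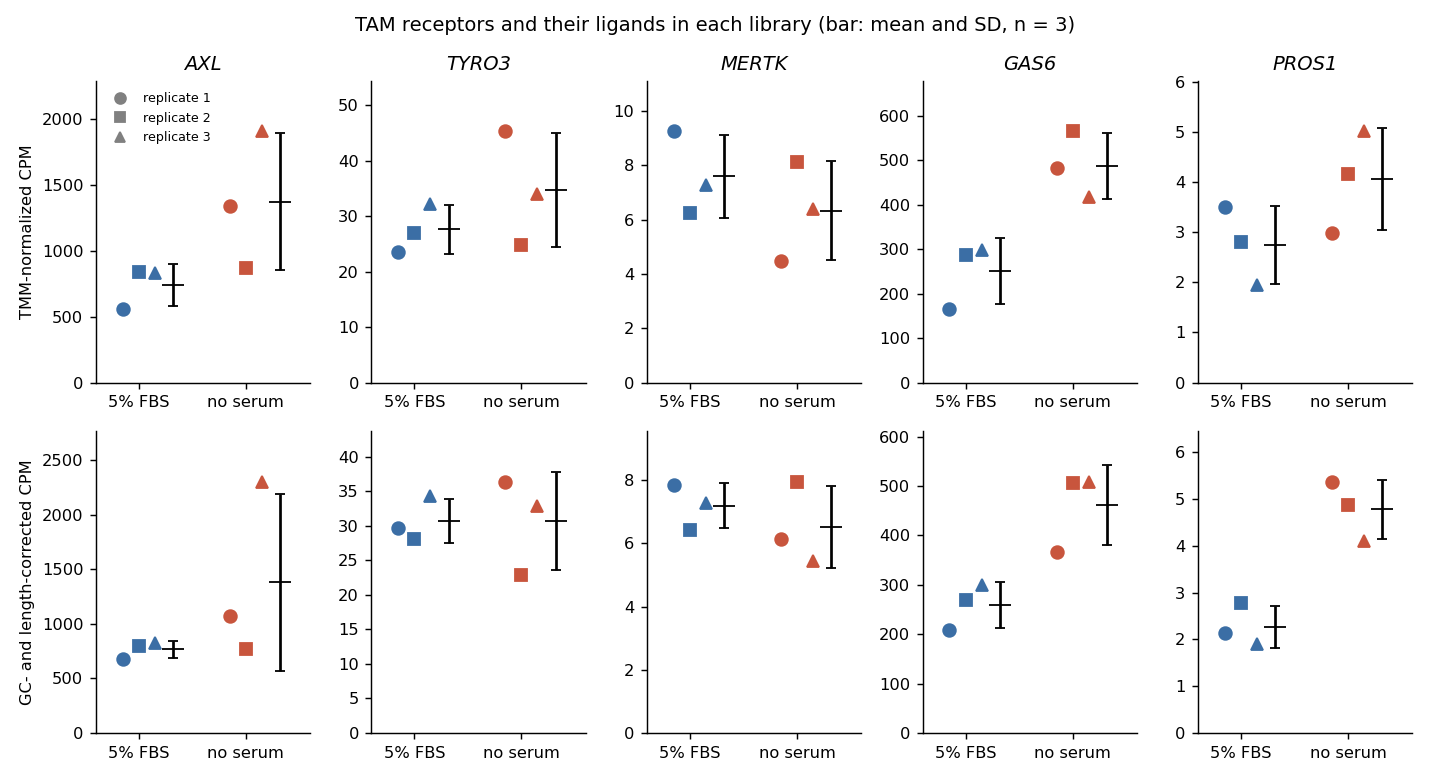
CPM of the 5 genes in each library before (top) and after (bottom) a correction for GC content and gene length, with the replicate given by the shape and the mean and SD (n = 3) as bars, on axes that start at 0. GAS6 is separated between the groups in both rows, AXL only before the correction (864 against 838 CPM at the gap) and PROS1 only after it (4.11 against 2.77 CPM).

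Counts can depend on a transcript's GC content differently in each library, and the 5 genes lie far apart on that scale. GAS6 transcripts had a mean GC content of 62.8%, above 91.3% of the genes tested, AXL 59.2% and TYRO3 57.4%. MERTK had 46.1%, and PROS1 had 40.1%, above only 6.80% of the genes. With GC content and length corrected for in each library, PROS1 was at 2.13, 2.77 and 1.89 CPM with FBS and at 5.37, 4.86 and 4.11 CPM without serum. The groups of PROS1 then no longer overlapped, and its log2 fold change was 1.07 in place of 0.56, without passing (edgeR adjusted p = 0.186, the lowest of its alternatives, which reached 0.997). TYRO3 went the other way, to a log2 fold change of 0.0015 (edgeR adjusted p = 0.999), with corrected means of 30.7 ± 3.25 and 30.7 ± 7.05 CPM. AXL kept a log2 fold change of 0.85, but its groups overlapped, since serum-starved replicate 2 fell to 773 CPM and FBS replicates 2 and 3 stood at 795 and 825 CPM. GAS6 kept its gap, with 208, 270.1 and 299 CPM against 367, 507 and 509 CPM (log2 fold change 0.83, edgeR adjusted p = 0.0865). After the correction the groups did not overlap in 2 of the 5, GAS6 and PROS1, against 22.0% of all genes in either direction.

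**Figure D3:**
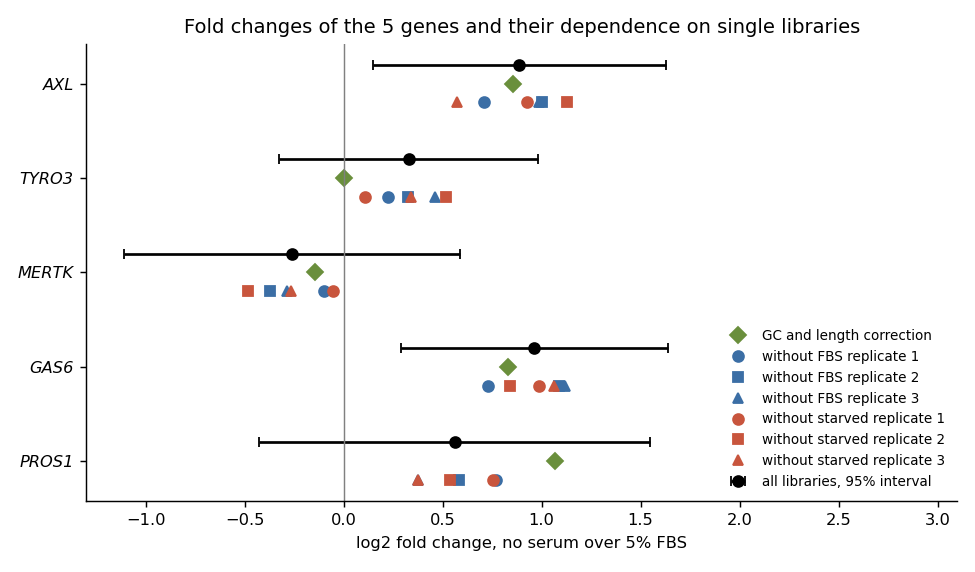
log2 fold change (no serum over FBS) of the 5 genes with its 95% interval (black), after the GC and length correction (green), and with each library left out in turn (blue and red, shape for the replicate). All points of AXL, GAS6, TYRO3 and PROS1 lie above 0 and those of MERTK below it. The intervals of TYRO3, MERTK and PROS1 include 0. TYRO3 reaches 0.0015 after the correction and PROS1 moves from 0.56 to 1.07.

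The balance between members was compared within each library, where the scaling of libraries cancels but effects of GC content do not. The log2 ratio of GAS6 to AXL was -1.98, -1.77 and -1.70 with FBS and -1.70, -0.84 and -2.42 without serum. The serum-starved libraries lay on both sides of those with FBS, with GAS6 gaining on AXL in replicate 2 and AXL on GAS6 in replicate 3. The difference of the means was 0.16 (exact two-sided permutation p = 0.8, n = 3 per group, smallest possible p = 0.1). The difference was -0.27 for PROS1 to AXL and 0.43 for GAS6 to PROS1, each with an exact permutation p of 0.6. Both turned sign with the GC and length correction, to 0.39 and -0.26 (exact permutation p = 0.5 and 0.6), a setting added after the data were seen. With a smallest p of 0.1, none of these 3 ratios could pass at 0.05.

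By the size of the difference between their patterns over the 6 libraries, the members were not alike. The root mean square difference of centred log2 CPM was 0.40 between AXL and TYRO3, 0.47 between AXL and GAS6 and 0.83 between AXL and MERTK. Among 8874 protein-coding genes with a mean of at least 5 CPM, the 3 genes most like AXL were STT3A, PRRC2B and C14orf132, at 0.127, 0.133 and 0.133. For GAS6 they were FBXO41, ULK1 and MYORG (0.103 to 0.127), for TYRO3 OGDH and NOP9 (0.0765 and 0.0800), for MERTK TSG101, MAP1LC3B and HENMT1 (0.0699 to 0.0942) and for PROS1 TNRC6A, SNX30 and LMO4 (0.0983 to 0.113). Among so many genes some lie close to any pattern of 6 values.

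The other genes of the pathway were taken from 8 lists. Of 82 that could be tested none passed in edgeR, and none in limma-voom, while DESeq2 called LRP1 and GAS7. At an unadjusted p under 0.05, 6 were higher (7.32%, against 6.01% of all genes) and 4 lower (4.88%, against 4.37%). The groups did not overlap in 11 of them, 8 higher and 3 lower (13.4%, against 17.7%). Their median log2 fold change was 0.0025. These shares lay within a few percentage points of those over all genes.

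**Figure D4:**
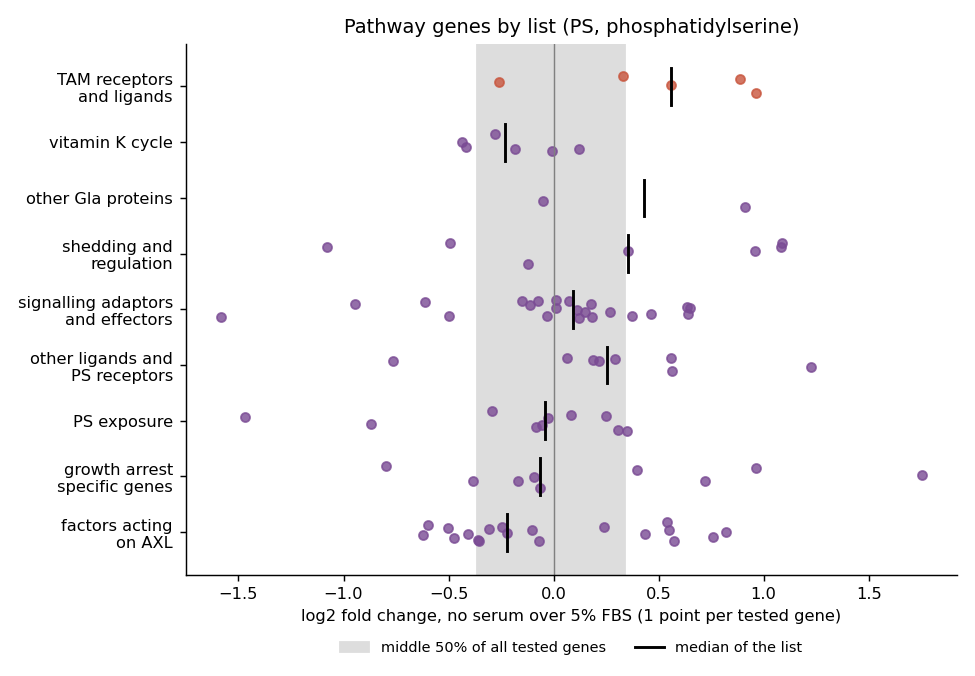
log2 fold change (no serum over FBS) of each tested gene by list, with the list's median as a bar and the middle 50% of all tested genes in grey (-0.36 to 0.34). The TAM receptors and ligands have a median of 0.56, which is the value of PROS1, while the other lists have medians between -0.23 and 0.43. GAS6 also stands among the growth arrest specific genes.

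None of the 6 genes of the vitamin K cycle, which activates the ligands, passed, and their median log2 fold change was -0.23. GGCX, the carboxylase that modifies the Gla domains, averaged 39.1 ± 2.47 CPM in the FBS group against 42.6 ± 4.63 CPM in the other (SD, n = 3). VKORC1L1, a vitamin K epoxide reductase, had a log2 fold change of -0.28, and CALU, a calcium-binding protein of the secretory pathway that inhibits the carboxylase, and AIFM2, which reduces vitamin K and coenzyme Q, had -0.42 and -0.44. With the GC and length correction VKORC1L1 had -0.031 and CALU -0.10. Of 16 other Gla proteins and partners of protein S, PRRG1 and PRRG2, transmembrane Gla proteins, passed the filter. PRRG1 was at 3.00 ± 1.06 and 2.88 ± 1.32 CPM, and PRRG2 had 79 counts over the 6 libraries. The clotting factor gene F9, MGP and C4BPA, the alpha chain of the plasma carrier of protein S, had no counts.

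Among regulators of the receptors, SOCS3 and SOCS1, feedback inhibitors of cytokine signalling that TAM receptors induce in immune cells, had opposite signs. SOCS3 was at 28.2, 25.9 and 16.8 CPM with FBS and at 13.5, 12.5 and 7.66 CPM without serum, so the groups did not overlap (log2 fold change -1.08, edgeR adjusted p = 0.290). The groups did not overlap for SOCS1 either, at 2.29, 2.44 and 1.75 CPM with FBS and 5.91, 4.78 and 3.17 CPM without serum. These were 2 of the 7 tested genes of the list (28.6%, against 17.7% of all genes). SOCS1 had a log2 fold change of 1.09 (edgeR adjusted p = 0.429), at 2.16 ± 0.361 and 4.62 ± 1.38 CPM. TNS2, a tensin reported to bind AXL, had 1.08, and RANBP9, a scaffold protein, -0.12 (0.24 after the GC and length correction). The proteases that shed AXL and MERTK from the surface did not pass. ADAM17 was at 6.15, 6.91 and 8.06 CPM with FBS and at 6.52, 9.22 and 25.1 CPM without serum, where replicate 3 alone stood high, and ADAM10 was at 13.1 ± 4.73 and 9.31 ± 4.31 CPM. These 2 genes were chosen after their values were seen.

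Of 22 tested adaptors and effectors, 14 had a fold change above 0, against 48.5% of all genes, and none passed. The groups did not overlap in 5 of the 22, 4 higher and 1 lower (22.7%, against 17.7% of all genes). These were PLCG1, NCK2, SRC and RAC1 (higher) and TWF1 (lower). PLCG1, a phospholipase recruited to receptor kinases, had a log2 fold change of 0.64 and NCK2, an SH2 adaptor, 0.65. PLCG1 had 0.36 after the GC and length correction. TWF1, a twinfilin that caps actin filaments, had -1.59 (edgeR adjusted p = 0.256), with means of 9.96 ± 5.85 CPM in FBS and 3.31 ± 0.863 CPM in its absence. FBS replicate 1 stood highest for TWF1, at 16.7 CPM against 6.73 and 6.43 CPM in the other libraries with FBS. TWF1 had -0.99 without that library and -1.06 after the GC and length correction. RAC1, the GTPase behind engulfment and the most abundant gene of the list per length, was at 410 ± 7.74 and 463 ± 13.8 CPM (log2 fold change 0.18). Among other ligands and receptors for phosphatidylserine, LRP1, a large endocytic receptor, was at 43.4, 83.8 and 97.2 CPM with FBS and at 151, 141 and 232 CPM without serum. Its libraries were all higher without serum (log2 fold change 1.22, edgeR adjusted p = 0.202). LGALS3, a galectin reported as a TAM ligand, had 0.57, ITGAV, the integrin subunit that binds MFGE8, -0.76, and SCARB1, a scavenger receptor, 0.29. The values of ITGAV and SCARB1 were -0.28 and 0.060 after the GC and length correction. The genes for phosphatidylserine exposure had a median of -0.04 over 10 tested. TMEM30A, a chaperone of phosphatidylserine flippases, had -0.87 with overlapping groups and -0.075 after the same correction, XKR8, the scramblase of apoptotic cells, 0.35, and PTDSS1, a phosphatidylserine synthase, -0.02.

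Of the genes named growth arrest specific, or after such a gene, 9 were tested, GAS6 among them, and none passed. GAS7, a protein of the actin cytoskeleton, was at 3.35, 3.16 and 2.08 CPM with FBS and at 13.3, 5.87 and 9.95 CPM without serum (log2 fold change 1.76, edgeR adjusted p = 0.149). It and GAS6 were the 2 genes of this list with no overlap between the groups (22.2% of the 9, against 17.7% of all genes). GAS5, a noncoding host of small nucleolar RNAs, had -0.17 (0.18 after the GC and length correction), GAS2L3, which links actin and microtubules, -0.80, and PMP22, a membrane protein first named GAS3, -0.39. The list's median was -0.07. Of 19 transcription factors known to act on AXL, 7 had a fold change above 0, against 48.5% of all genes. None passed, and the median was -0.22. FOSL1, the AP-1 subunit and the most abundant per length, was at 594, 687 and 618 CPM with FBS and at 517, 460 and 277 CPM without serum. FOSL1 was the 1 factor of the 19 without overlap, every serum-starved library lying below every library with FBS (5.26%, against 17.7% of all genes). Its log2 fold change was -0.60 (edgeR adjusted p = 0.536). EPAS1 and HIF1A, the hypoxia factors, had 0.82 and -0.62 with overlapping groups, and HIF1A had -0.20 after the GC and length correction.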

How the data were processed

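Per the labels' protocols, total RNA was taken with Trizol and a column step with DNase, and library construction used a NEBNext Ultra II kit for Illumina. The submitters' processing notes name STAR 2.6.1, DESeq2 and GRCh38, without their roles. How reads were counted, and with which strand setting, is not given in the sources used here. Raw counts per gene were deposited by the authors, with FPKM that the authors made for the same genes. Per the file headers the table gives gene length, and in each library the deposited FPKM equalled the count over length times 1 constant (genes above 20 counts). All 58735 gene positions matched GENCODE 29.

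Genes were kept with filterByExpr (minimum count 10, total 15), scaled by TMM and tested two-sided in edgeR 4.0.16 (R 4.3.3, quasi-likelihood, robust), with Benjamini-Hochberg adjustment over 13772 genes at 0.05. Alternatives used DESeq2 1.42.0, limma 3.58.1 and splines (5 degrees of freedom) in GC content and length. A level of 3 counts, the limit that a count of 0 allows, was 0.132 to 0.204 CPM in a library and covers counting error only. The members and lists were chosen with earlier results of these data known. Genes named besides members were, per list, those that passed, or else the 3 with the smallest p and the most abundant per length. Others were named after their values were seen. Some genes that this rule names are not reported here.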

Additional observations from a re-analysis of the deposited data

How the results depend on the processing

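The number of genes that passed over the whole table was 39. It was 25 with total counts alone, 127 without a low-count filter, 154 with DESeq2, 111 with the GC and length correction, 13 at an adjusted p under 0.01, 22 and 19 with limma on log2(FPKM + 1) and log2(FPKM + 0.1), and 0 with limma on log2(FPKM + 1) without a filter. With 1 library left out it ran from 4 to 257. AXL, GAS6, MERTK and PROS1 kept the sign of their fold change under all 21 alternatives, and TYRO3 under 20. No member passed under any of them except GAS6 without serum-starved replicate 3 (log2 fold change 1.06). With 1 library left out the log2 fold change ran from 0.57 to 1.13 for AXL, 0.73 to 1.12 for GAS6, 0.11 to 0.52 for TYRO3, -0.48 to -0.05 for MERTK and 0.38 to 0.77 for PROS1. The ratio differences changed sign in some of these: GAS6 to AXL ran from -0.24 to 0.55, PROS1 to AXL from -0.60 to 0.12 and GAS6 to PROS1 from -0.040 to 0.81. With the GC and length correction these differences were 0.13, 0.39 and -0.26. Of the pathway genes, 2 passed without a low-count filter and 2 with DESeq2 (LRP1 and GAS7 in both), and 0 or 1 with a library left out, the 1 being GAS7 without serum-starved replicate 3.

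The replicate numbers showed no consistent pairing: deviations of same-numbered libraries from their group means correlated at -0.31, 0.12 and -0.11 across genes. Differently numbered libraries of the 2 groups correlated at -0.30 to 0.31. Whether same-numbered libraries belong together cannot be decided from these values. With the replicate number as a block 43 genes passed, and with the block and the GC and length correction 161, where TYRO3 had a log2 fold change of -0.021. No member passed in either fit. Among named pathway genes the sign of the fold change turned with the GC and length correction for PRRG1 (0.17), RANBP9 (0.24) and GAS5 (0.18), with the block added for the same genes (0.19, 0.25 and 0.049), and with single libraries left out for PRRG1 (-0.50 to 0.15), RANBP9 (-0.29 to 0.11), PTDSS1 (-0.13 to 0.11) and GAS5 (-0.79 to 0.14). The cause of these shifts was not tested. Of 28 pathway genes picked by the naming rule, the fold change turned sign or moved by over 1.5 times in 12 with the GC and length correction and in 21 with some library left out, among them TMEM30A (-0.37 without FBS replicate 1) and ITGAV (-0.31 in the same fit, and -1.28 once serum-starved replicate 3 was dropped). PROS1 and MERTK had 30 to 182 counts per library, and their standard errors were 0.47 and 0.40, against 0.35 for AXL with 10938 to 43242 counts. The standard error did not follow the counts throughout. It was 0.32 for GAS6 with 3242 to 10287 counts and 0.31 for TYRO3 with 451 to 772 counts.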
